A study of Mus musculus with 96 samples.

Results

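The 6 genes described here encode the 2 insulins of the mouse (Ins1 and Ins2), amylin (Iapp), the prohormone convertases PC1/3 and PC2 (Pcsk1 and Pcsk2) and carboxypeptidase E (Cpe). They were taken by name from the table of 21990 genes, 20155 of which held values, and all 6 were measured. Bulk RNA sequencing had been done on the islets and the liver of 48 male C57BL/6N mice bought at 4 weeks of age and fed either a chow diet (CD, LabDiet 5001, 13.5% fat) or a high-fat diet (HFD, D12492, 60% fat). Mice were killed after 4, 8, 12, 16, 20 or 24 weeks on the diet, with 4 CD and 4 HFD mice at each of these 6 time points. Islets had been released with collagenase, separated on a density gradient and hand-picked, so each library holds all cell types of the islet and whatever exocrine tissue remained attached. Mice of different weeks differ in age as well as in time on the diet, and any difference in handling between weeks cannot be told apart from them. Each mouse gave 1 islet library, and values are fragments scaled to the length of the transcript and to the mapped fragments of the library (FPKM).

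In beta cells the insulin and amylin precursors enter the secretory pathway together and are stored in the same granules. PC1/3 and PC2 cut each precursor after pairs of basic amino acids, and carboxypeptidase E then removes the basic residues left at the new end. Mice, unlike most mammals, carry a pair of insulin genes: Ins2 is the ancestral gene with an intron in its coding region and Ins1 is a copy of it that lost this intron. PC2 is also the convertase that alpha cells use to release glucagon, and somatostatin-producing delta cells contain convertases and carboxypeptidase E too, so Pcsk2 and Cpe are not markers of beta cells alone.

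The precursors' coding sequences are shown because they carry the sites on which Pcsk1, Pcsk2 and Cpe act. The reading frames were taken from GENCODE M21 on GRCm38 (the files name GRCm38.p5), are printed 5′ to 3′ in lower case, and have neighbouring codons for basic residues (lysine or arginine) in capitals. For Ins1 (chr19:52264696-52264947, plus strand, 1 coding exon) and Ins2 (chr7:142678716-142679461, minus strand, 2 coding exons with the intron left out) the sequence starts at codon 25 of 108 and of 110 codons, and for Iapp (chr6:142298849-142303501, plus strand, 2 coding exons) it covers all 93 codons.
Ins1: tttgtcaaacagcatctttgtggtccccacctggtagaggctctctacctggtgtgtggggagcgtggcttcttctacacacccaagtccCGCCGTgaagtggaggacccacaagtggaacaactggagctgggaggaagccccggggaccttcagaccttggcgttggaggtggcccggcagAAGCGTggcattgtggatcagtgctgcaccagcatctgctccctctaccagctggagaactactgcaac
Ins2: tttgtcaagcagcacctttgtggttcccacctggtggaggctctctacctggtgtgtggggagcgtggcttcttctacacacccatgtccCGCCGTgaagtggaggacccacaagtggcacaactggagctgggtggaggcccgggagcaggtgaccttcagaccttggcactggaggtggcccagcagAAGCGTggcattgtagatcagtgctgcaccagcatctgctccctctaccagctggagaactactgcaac
Iapp: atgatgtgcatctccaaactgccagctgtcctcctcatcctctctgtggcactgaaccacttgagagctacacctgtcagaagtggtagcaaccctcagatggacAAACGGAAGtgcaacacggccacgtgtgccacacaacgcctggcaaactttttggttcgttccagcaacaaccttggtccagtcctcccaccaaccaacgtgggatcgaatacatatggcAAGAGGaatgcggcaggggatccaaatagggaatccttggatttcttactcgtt
Each insulin frame held 2 such pairs, an Arg-Arg pair at codons 55 and 56 in both genes, and a Lys-Arg pair at codons 86 and 87 of Ins1 and at codons 88 and 89 of Ins2. Iapp held a run of basic codons from 36 to 38 and a Lys-Arg pair at codons 76 and 77. The whole coding sequences of Ins1 and Ins2 matched at 301 of 330 aligned positions (91.2%), with 54 bases as the longest identical run. Reads that fall in identical stretches can be assigned to either gene only by estimation, so the split between Ins1 and Ins2 is less certain than their sum.

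The table places Ins1 at chr19:52215784-52265015 on the plus strand, Ins2 at chr7:142678656-142753659 on the minus strand, Iapp at chr6:142298425-142303820 on the plus strand, Pcsk1 at chr13:75089420-75134861 on the plus strand, Pcsk2 at chr2:143546133-143816284 on the plus strand and Cpe at chr8:64493162-64693109 on the minus strand. The spans of Ins1, Ins2 and Cpe in the table are longer than those in RefSeq. Iapp lies inside Slco1a5 on the opposite strand, and Slco1a5 reached at most 2.44 FPKM in islets. Whether the counting used the strand of the reads is not given in the sources used here, so for Iapp, and for Pcsk2 with its antisense transcripts, reads of the other strand cannot be told apart.

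The order of the levels per length was Ins2, Ins1, Iapp, Cpe, Pcsk2 and Pcsk1 in 48 of 48 islet libraries. Ins2 ranged from 394273 to 707231 FPKM and was the gene with the highest value in every islet library. Ins1 ranged from 154648 to 264805 FPKM and came second in each of them, and Iapp ranged from 22599 to 38714 FPKM and ranked 3 or 4. The processing enzymes stood far lower: Cpe ranged from 1257 to 2121 FPKM (rank 9 to 35), Pcsk2 from 571 to 1046 FPKM (rank 21 to 45) and Pcsk1 from 87.3 to 213 FPKM (rank 179 to 480). Within a library Ins2 was 2.13 to 3.15 times Ins1 (median 2.57), Ins1 was 4.53 to 8.93 times Iapp, Iapp was 13.4 to 30.8 times Cpe, Cpe was 1.54 to 2.78 times Pcsk2 and Pcsk2 was 4.1 to 7.95 times Pcsk1. No neighbours in this order changed places in any library.

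**Figure D1:**
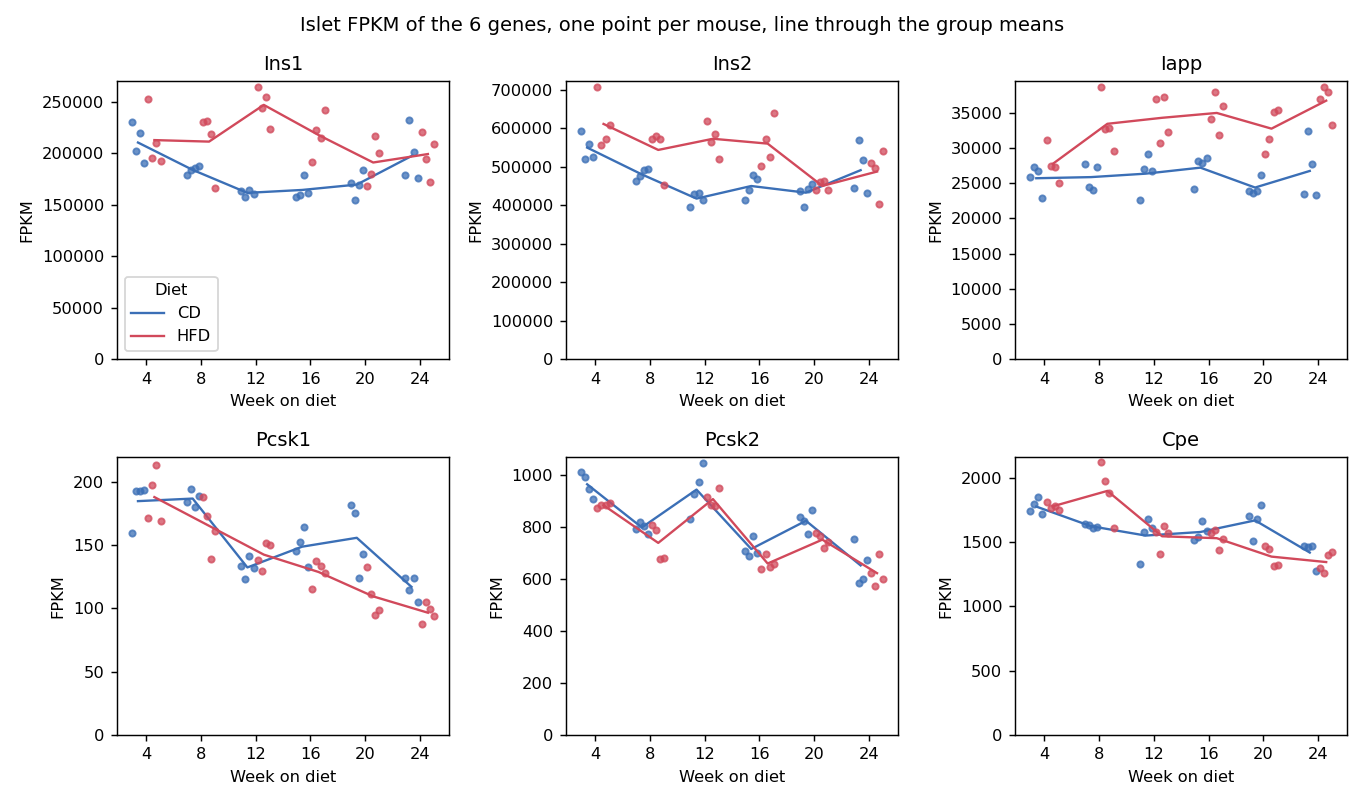
FPKM (y axis) of each of the 6 genes against week on the diet (x axis) in islets of CD (blue) and HFD (red) mice, with 1 point per mouse, 4 mice per diet and week, and lines through the group means. The HFD points of Iapp lie above all CD points of the same week from week 8 to week 24, those of Ins1 and Ins2 at weeks 12 and 16, and the mean of Pcsk1 is lowest at week 24 in both diets. The share of all genes without such overlap was not counted.

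Ins1 and Ins2 together made up 66.5% ± 4.50 (SD, n = 48) of the summed FPKM of an islet library, from 53.7% to 75.1%. In CD islets this share was lowest at week 12, with 57.0% ± 2.38 (SD, n = 4), where HFD islets had 69.6% ± 2.10 (SD, n = 4). Because FPKM are relative to the whole library, a change in 2 genes of this size moves the values of the others, and results that depend on this are given with the library total taken without Ins1 and Ins2.

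HFD islets were compared with CD islets of the same week by limma on log2(FPKM + 1), with Benjamini-Hochberg adjustment over the 11286 to 11709 genes that reached 1 FPKM in 4 or more of a week's 8 libraries. A gene was called at an adjusted p under 0.05. Where the values of the 2 diets do not overlap, this is a description only, since the share of all genes without overlap was not counted. Unadjusted limma p-values were under 0.05 for 3362 of 11636 genes at week 8 and 3004 of 11704 at week 20. At week 4 none of the 6 genes was called, as was none of the 11569 genes tested (0% higher and 0% lower, 854 genes at an unadjusted p under 0.05). At week 8 again none was called, with 0.602% of all genes called higher and 4.67% lower. At week 12 Ins1, Ins2 and Iapp were higher in HFD islets, 3 of 6 genes against 2.18% of all genes, and none was lower against 2.35%. At week 16 the same 3 genes were called higher, against 3.30% of all genes, and none lower against 5.15%. At weeks 20 and 24 Iapp alone was called higher, against 1.53% and 6.57% of all genes, and none was called lower, against 3.21% and 1.73%. The split of all calls depended on the scaling: at week 12 there were 246 genes higher and 265 lower, but 2896 and 185 with Ins1 and Ins2 left out of the library total, and 86 and 1418 on the TPM scale, where each library is divided by its summed FPKM. The median log2 change of all genes at week 12 was then 0.26 and -0.17, against 0.01 in the main scaling.

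Averaged over the 6 weeks in one fit of all 48 libraries, 3 of the 6 genes were higher in HFD islets (16.9% of 11556 genes were) and 2 were lower (20.9% of genes). Iapp was higher by 0.35 on the log2 scale (SE 0.04, adjusted p = 6.67e-10), Ins1 by 0.23 (SE 0.04, adjusted p = 8.97e-06) and Ins2 by 0.19 (SE 0.04, adjusted p = 5.63e-05). Pcsk1 was lower, with a log2 change of -0.17 (SE 0.04, adjusted p = 0.00096), and so was Pcsk2, with -0.10 (SE 0.03, adjusted p = 0.0038). Cpe did not pass, with a log2 change of -0.03 and a 95% confidence interval from -0.08 to 0.03, though it did on the TPM scale (-0.13, adjusted p = 0.00068) and with the level of acinar cell markers as a covariate (-0.07, adjusted p = 0.024). With Ins1 and Ins2 left out of the library total, the changes of Pcsk1 (-0.09, adjusted p = 0.109) and Pcsk2 (-0.02, adjusted p = 0.689) no longer passed, whereas those of Iapp, Ins1 and Ins2 did. For Ins1 and Ins2 this is no independent check, because the total that divides them no longer contains them. The median log2 change of all genes was then 0.06, against -0.01 in the main scaling. The split of all genes also moved, from 1951 higher and 2418 lower to 4318 higher and 1031 lower, and to 412 higher and 5130 lower on the TPM scale.

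**Figure D2:**
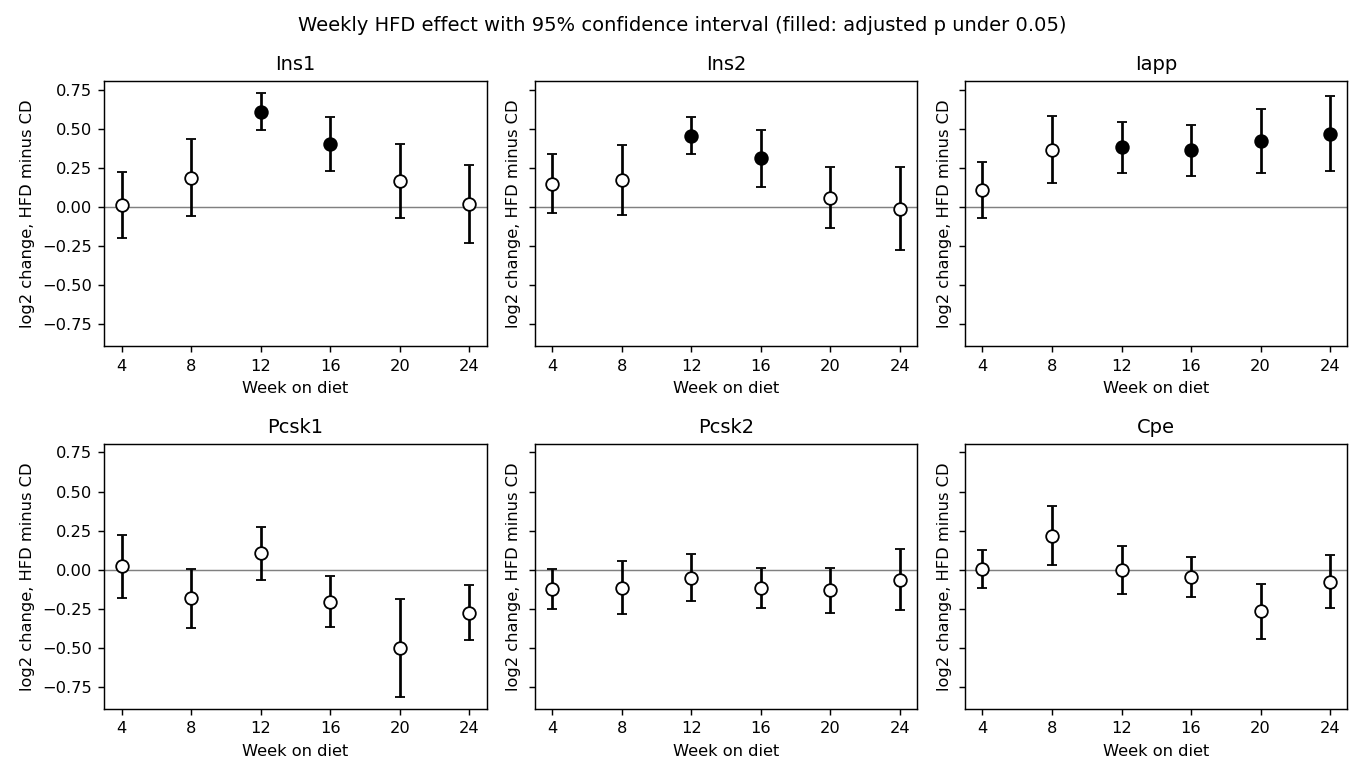
Log2 change of HFD against CD islets (y axis) in each week (x axis) for the 6 genes, with 95% confidence intervals from limma on 4 HFD and 4 CD libraries, filled where the adjusted p was under 0.05. The estimates of Ins1 and Ins2 are largest at week 12 (0.61 and 0.46) and near 0 at week 24 (0.02 and -0.01), those of Iapp stay between 0.36 and 0.47 from week 8 on, and those of Pcsk2 are below 0 in each of the 6 weeks.

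Ins1 is the insulin gene without the second intron. At week 12 the CD islets had 163513, 158036, 164194 and 160634 FPKM and the HFD islets 264805, 244567, 255156 and 223934 FPKM. Every HFD library was above every CD library, and the HFD mean was 52.9% above the CD mean (log2 change 0.61, SE 0.06, limma adjusted p = 2.14e-07). At week 16 the CD islets had 157416, 159813, 179279 and 161208 FPKM and the HFD islets 191923, 222728, 214747 and 242088 FPKM, again without overlap, a difference of 32.5% (log2 change 0.40, SE 0.08, limma adjusted p = 0.0054, but 0.0660 without HFD414). In the other weeks the diets overlapped: 190291 to 230549 in CD and 192957 to 252710.5 in HFD islets at week 4, 178825 to 187858 and 166073 to 231038 at week 8, 154648 to 183847 and 168229 to 216456 at week 20, and 176279 to 232639 and 172240.2 to 221108 at week 24. The effect of HFD on Ins1 differed between weeks (limma F-test with 5 degrees of freedom, adjusted p = 0.020), as it did for 3.47% of all genes, but not with median ratio scaling (adjusted p = 0.152).

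Ins2, the ancestral gene, is the more abundant of the pair. At week 12 it stood at 394273, 429955, 432155 and 412586 FPKM in CD and at 619103, 565651, 585873 and 520399.6 FPKM in HFD islets. The groups did not overlap, and the HFD mean was 37.3% higher (log2 change 0.46, SE 0.06, limma adjusted p = 1.08e-05). At week 16 the values were 414025, 438756, 478186 and 468924 FPKM in CD and 501128, 573376, 526125 and 640035 FPKM in HFD islets, a difference of 24.5% with no overlap (log2 change 0.31, SE 0.09, limma adjusted p = 0.036). This call was lost without CD401, CD403, HFD414 or HFD418 (adjusted p 0.0854, 0.0946, 0.198 and 0.0984) and with median ratio scaling (0.30, adjusted p = 0.137). At weeks 20 and 24 the means differed by 4.04% and -0.73%. The test of whether the effect on Ins2 differed between weeks gave an adjusted p of 0.0926.

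The week 12 and week 16 comparisons of insulin came with a difference in markers of exocrine tissue. The summed level of the 11 acinar cell markers (digestive enzymes and their regulators, all of them above 0 in each group) was 40994 to 99007 FPKM in CD and 7642 to 37912 FPKM in HFD islets at week 12, and 18696 to 35145 FPKM in CD and 4346 to 13653 FPKM in HFD islets at week 16. None of the 10 acinar markers tested was called on its own in either week, with a median log2 change of -1.53 and -1.43. Averaged over the 6 weeks, 3 of 10 tested were called lower and 0 higher (20.9% and 16.9% of all genes), with a median of -0.47. The mean log2 level of these markers was used as a covariate in one fit of all 48 libraries, unlike the weekly fits of 8 libraries above. There Ins1 and Ins2 passed at week 12 (log2 changes 0.50 and 0.36, limma adjusted p = 0.0018 and 0.017) and Iapp did not (0.23, adjusted p = 0.132). At week 16 none of these 3 genes passed with this covariate (0.30, 0.22 and 0.21 for Ins1, Ins2 and Iapp, adjusted p = 0.0935, 0.236 and 0.231). The 7 other beta cell markers summed to 1743 to 1975 FPKM in CD and 2075 to 2932 FPKM in HFD islets at week 12, and to 1602 to 2379 FPKM in CD and 2168 to 2588 FPKM in HFD islets at week 16, where they overlapped. In the same weeks 5 of 6 alpha cell markers (median log2 change -0.98 at week 12 and -1.33 at week 16) and 3 of 3 delta cell markers (-0.95 and -1.76) were called lower, against 2.35% and 5.15% of all genes, and their part in the insulin values was not tested. In bulk islets fewer cells of a type and less RNA per cell cannot be told apart.

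**Figure D3:**
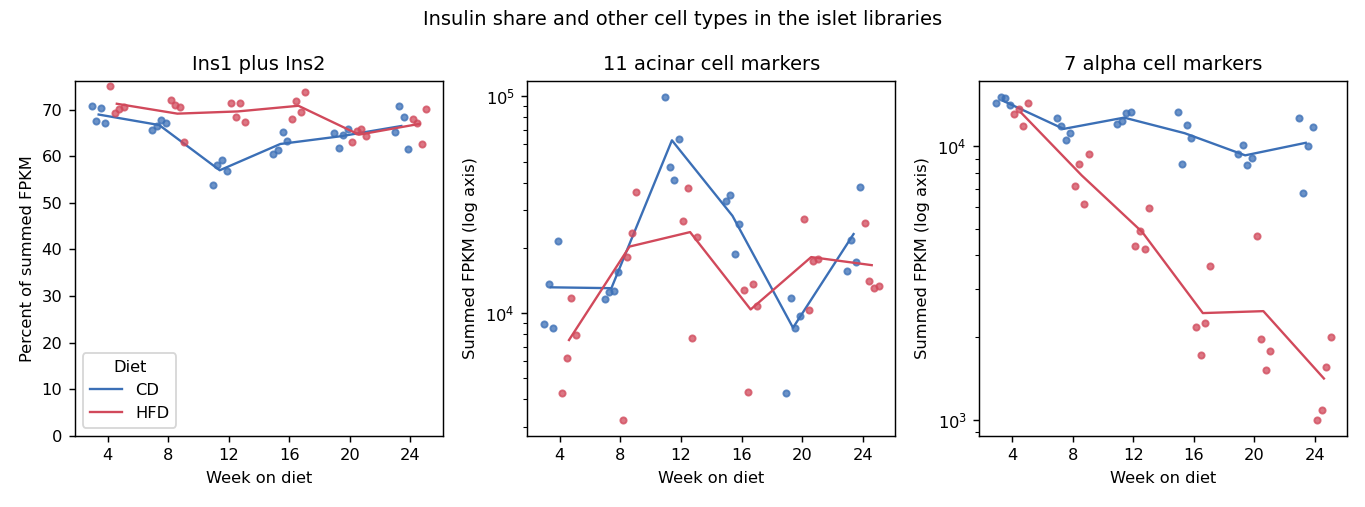
Share of summed FPKM held by Ins1 and Ins2 in percent (left), summed FPKM of 11 acinar cell markers (middle, log axis) and of 7 alpha cell markers (right, log axis) against week on the diet in CD (blue) and HFD (red) islets, 1 point per mouse and lines through group means. At week 12 the CD points of the insulin share lie between 53.7% and 59.2% and those of the acinar markers between 40994 and 99007 FPKM, and the alpha cell markers of HFD islets go down to 999 to 2011 FPKM at week 24.

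Iapp encodes the precursor of amylin, the peptide hormone released with insulin. At week 4 the diets overlapped, with 22941 to 27262 FPKM in CD and 25059 to 31202 FPKM in HFD islets. At week 8 the CD islets had 27761, 24450.2, 23963 and 27282 FPKM and the HFD islets 38682, 32685, 32864 and 29538 FPKM. The groups did not overlap and the HFD mean was 29.3% above the CD mean, but the adjusted p was 0.0529 (log2 change 0.37, SE 0.10, limma). It passed on the TPM scale (0.24, adjusted p = 0.026) and with all groups in one fit (adjusted p = 0.015).

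At week 12 Iapp had 22599, 26949.7, 29092 and 26778 FPKM in CD and 37011, 30699, 37212 and 32259 FPKM in HFD islets. At week 16 it had 24122, 28225, 27849 and 28642 FPKM in CD and 34166, 37985, 31868 and 35917 FPKM in HFD islets. All HFD libraries were above all CD libraries in both weeks. The HFD means were 30.1% and 28.6% above the CD means (log2 changes 0.38 and 0.36, SE 0.08 for both, limma adjusted p = 0.0070 and 0.0079). The first call was lost without CD306 (adjusted p = 0.0533), with median ratio scaling (0.36, adjusted p = 0.0541), on the TPM scale (0.17, adjusted p = 0.0771) and without the variance trend (adjusted p = 0.0687), and the second without HFD414 (adjusted p = 0.0808).

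At week 20 the CD values of Iapp were 23826, 23601, 23944 and 26159.6 FPKM and the HFD values 29138, 31348, 35173 and 35349.7 FPKM. At week 24 they were 23394, 32456, 27798 and 23318 FPKM in CD and 36959.6, 38714, 38015 and 33239.7 FPKM in HFD islets. The groups again did not overlap, and HFD means were higher by 34.3% and 37.4% (log2 changes 0.42 and 0.47, SE 0.09 and 0.11, limma adjusted p = 0.035 and 0.017). The week 20 call was lost when any single library other than HFD511 was left out (adjusted p 0.0613 to 0.127, log2 change 0.38 to 0.46), and the week 24 call without CD601, CD608 or HFD616 (adjusted p 0.0693, 0.0530 and 0.0630). The week 24 call was also lost with median ratio scaling (0.38, adjusted p = 0.288). The test of a change of the HFD effect between weeks was not passed (adjusted p = 0.350).

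Iapp in CD islets did not differ between weeks in the main scaling (limma F-test, adjusted p = 0.681), its means lying between 24383 and 27210 FPKM. In HFD islets it did (adjusted p = 0.0033), with a mean of 27737 ± 2549 FPKM (SD, n = 4) at week 4 and 36732 ± 2437 FPKM (SD, n = 4) at week 24. Of all genes, 79.1% differed between weeks in CD and 85.2% in HFD islets, so the 5 of 6 genes called in CD and the 6 of 6 in HFD are near these shares, and Ins1 in HFD islets no longer passed without HFD313 (adjusted p = 0.0532) or without week 12 (0.318), or with insulin left out of the total (0.0707). With insulin left out of the total, with median ratio scaling or with the acinar covariate, Iapp also differed between weeks in CD islets (adjusted p = 0.0381, 0.0405 and 0.0178).

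Pcsk1 encodes PC1/3. At week 4 the diets overlapped, with 159.7, 193, 192 and 194 FPKM in CD and 172, 198, 213 and 169 FPKM in HFD islets. At week 20 the CD islets had 181, 175, 124 and 143 FPKM and the HFD islets 133, 112, 94.5 and 98.8 FPKM. Only HFD511, with 133 FPKM, reached into the CD range, and the mean difference of -29.7% did not pass (log2 change -0.50, SE 0.14, limma adjusted p = 0.0671). Without HFD511 it did (-0.60, adjusted p = 0.018).

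At week 24 Pcsk1 had 124, 114, 124 and 105 FPKM in CD and 87.3, 105, 99.5 and 94.1 FPKM in HFD islets, a mean difference of -17.5% that did not pass (log2 change -0.27, SE 0.08, limma adjusted p = 0.0502), but did without CD608 or HFD614 (adjusted p = 0.035 and 0.040). In the other weeks the log2 change was -0.18 at week 8, 0.10 at week 12 and -0.21 at week 16, the last of which passed without CD407 (-0.26, adjusted p = 0.046). With Ins1 and Ins2 left out of the total Pcsk1 was called higher at week 12 (0.39, limma adjusted p = 0.016), as were 2896 of 11305 genes. The median log2 change of all genes was then 0.26. In that scaling Pcsk1 was called lower at week 20 (-0.57, adjusted p = 0.035), as were 1056 of 11702 genes (median -0.08). On the TPM scale it was called lower at weeks 8 and 16 (-0.31 and -0.36, adjusted p = 0.026 and 0.0043). So were 2970 of 11572 and 1331 of 11646 genes, with medians of -0.22 and -0.13. With median ratio scaling it was called lower at week 24 (-0.37, adjusted p = 0.011), as were 370 of 11700 genes. The mean effect of weeks 4, 8 and 12 exceeded that of weeks 16, 20 and 24 by 0.31 on the log2 scale (SE 0.08, limma adjusted p = 0.031), a contrast passed by 2.63% of all genes, though not on the TPM scale (0.25, adjusted p = 0.161). Without single libraries this adjusted p lay between 0.0066 and 0.0577, and the call was lost without any of CD306, CD405, CD501, CD502, HFD114, HFD411, HFD517 and HFD518.

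Pcsk1 was also the gene of the 6 with the largest span over time. In CD islets its mean went from 185 ± 16.6 FPKM (SD, n = 4) at week 4 to 117 ± 9.15 FPKM (SD, n = 4) at week 24, with 132 FPKM at week 12 in between (limma F-test across weeks, adjusted p = 2.41e-07). In HFD islets it went from 188 ± 21.4 to 96.5 ± 7.6 FPKM (SD, n = 4, adjusted p = 8.26e-11), and each HFD mean was below that of the week before. These tests stand beside 79.1% of genes passing in CD and 85.2% in HFD islets.

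Pcsk2 (PC2) had HFD means below the CD means in each of the 6 weeks, with differences of -8.82% to -3.87%, without passing the test in any. With Ins1 and Ins2 left out of the total the estimate was above 0 at weeks 12 and 16 (0.24 and 0.08), where the median of all genes was 0.26 and 0.19. With median ratio scaling it was 0.00 at week 8. On the TPM scale Pcsk2 was called lower at weeks 8, 12 and 16 (-0.24, -0.26 and -0.28, limma adjusted p = 0.037, 0.032 and 0.0096). So were 2970 of 11572, 1418 of 11164 and 1331 of 11646 genes. The median log2 change of all genes on this scale was -0.22, -0.17 and -0.13. At week 4 the 4 CD libraries had 1011, 992, 946 and 905 FPKM and the 4 HFD libraries 871, 885, 884 and 891 FPKM, which did not overlap (log2 change -0.12, SE 0.06, limma adjusted p = 0.675). The effect did not pass the test of a difference between weeks (adjusted p = 0.954). Levels went up and down with the week in both diets alike: CD means were 963, 797, 943, 715, 823 and 651 FPKM from week 4 to week 24, and HFD means were 883, 738, 906, 659, 750.5 and 622 FPKM. Both courses passed the test across weeks (adjusted p = 1.10e-09 in CD and 1.07e-09 in HFD islets).

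The alpha cell markers, which accompany one of the cell types that use PC2, moved with the diet as well. Their summed level, led by the glucagon gene Gcg, was 11825 to 14369 FPKM in HFD and 14151 to 15126 FPKM in CD islets at week 4, and 999 to 2011 FPKM in HFD and 6745 to 12653 FPKM in CD islets at week 24. Of the 6 alpha cell markers tested, 5 were lower at week 24 and none higher (1.73% and 6.57% of all genes), with log2 changes of -2.93 for Gcg and, among delta cell markers, -2.66 for the somatostatin gene Sst (limma adjusted p = 0.0027 and 0.00034). The delta cell markers summed to 3857 to 3996 FPKM in HFD islets at week 4 and to 330 to 634 FPKM at week 24, against 2317 to 2959 FPKM in CD islets at week 24. Over the same weeks the difference of Pcsk2 stayed between -8.82% and -3.87%. The 2 pancreatic polypeptide cell markers summed to 5538 to 6528 FPKM in HFD islets at week 4 and to 526 to 1015 FPKM at week 24, against 3016 to 4136 FPKM in CD islets at week 24, where both were called lower (median log2 change -2.33). Over both diets and all weeks, the summed levels of 4 further marker lists were 119.9 to 214 FPKM for ductal cells, 106 to 193 FPKM for endothelial cells, 41.7 to 136 FPKM for macrophages and 0.54 to 119 FPKM for hepatocytes. At week 24, 4 of 5 endothelial markers were called higher in HFD islets (6.57% of all genes), and no ductal or macrophage marker was called. Averaged over weeks, 3 endothelial markers were higher and 1 lower, 2 macrophage markers were higher and 2 ductal markers lower (16.9% and 20.9% of all genes). The part of the alpha and delta cells in the levels of Pcsk2 and Cpe was not tested.

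Cpe trims the ends that the convertases leave. At week 8 the CD islets had 1639, 1631, 1610.5 and 1615 FPKM and the HFD islets 2121, 1979, 1882 and 1611 FPKM. Of the HFD mice, 3 were above all CD mice and HFD217 was within their range, and the difference of 16.9% did not pass (log2 change 0.22, SE 0.09, limma adjusted p = 0.129, and 0.040 with all groups in one fit). At week 20 the order was turned, with 1704, 1506, 1676 and 1789 FPKM in CD and 1469.5, 1445, 1312 and 1321 FPKM in HFD islets, and no overlap (-16.9%, log2 change -0.27, SE 0.08, limma adjusted p = 0.0764, and 0.025 without HFD511). It passed on the TPM scale (-0.35, adjusted p = 0.024) and with all groups in one fit (adjusted p = 0.0093). On the TPM scale 830 of 11761 genes were called lower in that week, with a median of -0.09. At weeks 4, 12, 16 and 24 the means differed by 0.098%, -0.36%, -3.06% and -5.22%. With Ins1 and Ins2 left out of the total Cpe was called higher in HFD islets at week 12 (log2 change 0.29, limma adjusted p = 0.033). So were 2896 of 11305 genes, and the median of all genes was 0.26. On the TPM scale Cpe was called lower at week 16 (-0.20, adjusted p = 0.049), as were 1331 of 11646 genes (median -0.13).

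The HFD effect on Cpe differed between weeks (limma F-test, adjusted p = 0.033) and between the first and the last 3 weeks (difference 0.20, SE 0.06, adjusted p = 0.036). Neither passed on the TPM scale (adjusted p = 0.103 and 0.192). With the total taken without insulin the first passed and the second did not (0.26, adjusted p = 0.134). Leaving out single libraries took the first above 0.05 without CD203, CD205, CD208, CD501, CD507, HFD211, HFD212, HFD213, HFD517 or HFD518 (adjusted p up to 0.0721). It took the second above 0.05 without CD106, CD405, CD501, CD507, CD605, CD606, HFD112, HFD114, HFD211, HFD212, HFD313, HFD318, HFD416, HFD517, HFD518 or HFD614 (adjusted p up to 0.0652). Over time Cpe means went from 1776 to 1418 FPKM in CD islets and from 1778 to 1344 FPKM in HFD islets between weeks 4 and 24 (limma F-tests across weeks, adjusted p = 0.0015 and 2.56e-08).

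At week 8 a single HFD mouse, HFD217, set which genes passed. It had the lowest HFD value of Ins1 (166073 FPKM, the others 218336 to 231038), Ins2 (452682 FPKM, the others 571216 to 579845), Iapp (29538 FPKM) and Cpe (1611 FPKM). Its acinar marker sum was the highest of the 8 libraries, 36125 FPKM, and any part of acinar tissue in these values was not tested. Without HFD217 Ins1, Ins2, Iapp and Cpe were all called higher in HFD islets (log2 changes 0.30, 0.26, 0.42 and 0.29, limma adjusted p = 0.0096, 0.013, 0.014 and 0.019). The number of all genes called moved from 613 to 1787 without HFD217. It also moved without each of the other libraries, down to 116 at the lowest.

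Ratios of 2 genes of the same library do not depend on how the library was scaled. Iapp per insulin, that is Iapp divided by the sum of Ins1 and Ins2, was 3.39% ± 0.29 in CD and 3.38% ± 0.23 in HFD islets at week 4 (SD, n = 4). At week 20 it was 4.05% ± 0.17 in CD and 5.10% ± 0.33 in HFD islets, and at week 24 it was 3.87% ± 0.13 in CD and 5.42% ± 0.91 in HFD islets (SD, n = 4). The diets did not overlap at either week, from 3.92% to 4.29% against 4.79% to 5.52% and from 3.75% to 4.05% against 4.44% to 6.60%.

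The exact two-sided permutation test of 4 against 4 gave its smallest possible value, p = 0.0286, at weeks 20 and 24, which was 0.171 after adjustment over the 18 tests. At weeks 12 and 16, when both insulin genes were called higher, the ratio was 4.55% in CD against 4.18% in HFD islets and 4.43% against 4.52%. Over the 6 weeks Iapp per insulin was 1.11-fold higher in HFD islets (permutation of diet within week, p = 0.0020, adjusted over 3 ratios 0.0060), with 4 of 6 weeks in that direction. Leaving out single libraries kept the mean log2 difference between 0.13 and 0.16.

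**Figure D4:**
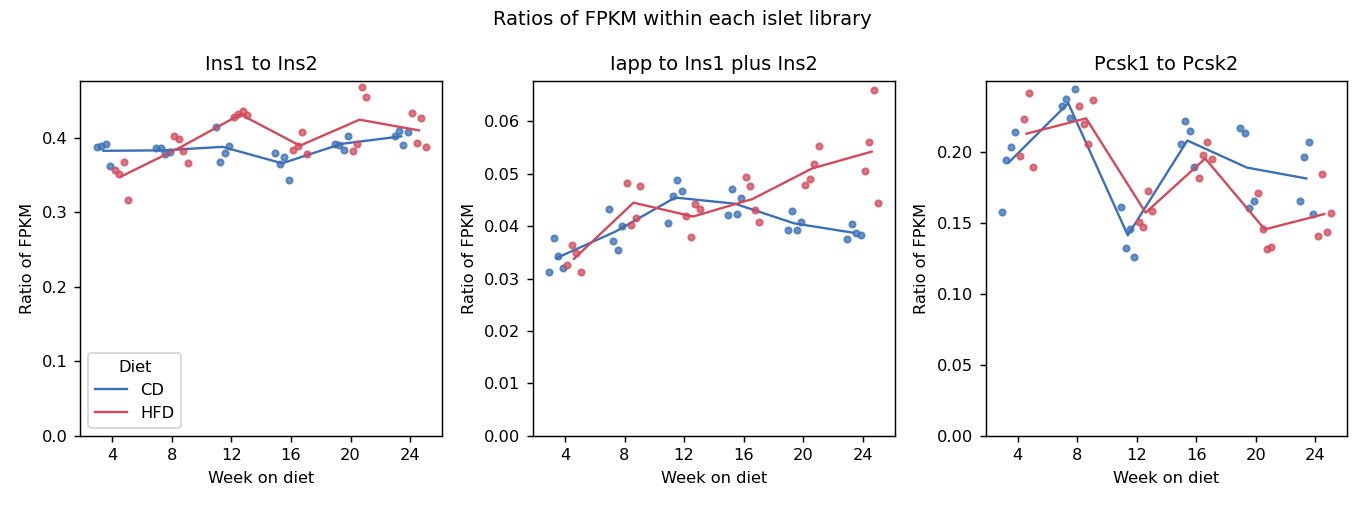
Ratio of FPKM (y axis) of Ins1 to Ins2, Iapp to the sum of Ins1 and Ins2, and Pcsk1 to Pcsk2 within each islet library against week on the diet (x axis), 1 point per mouse, CD in blue and HFD in red, lines through group means. The HFD points of Iapp per insulin lie above all CD points at weeks 20 and 24, and those of Ins1 to Ins2 do so at week 12.

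The ratio of Ins1 to Ins2 ranged from 0.317 to 0.469 over the libraries. Its group means lay between 0.348 (HFD, week 4) and 0.432 (HFD, week 12), and at week 12 the CD islets had 0.368 to 0.415 and the HFD islets 0.428 to 0.436 (exact permutation test, p = 0.0286, adjusted 0.171). Over all weeks HFD islets had a 1.03-fold higher ratio, which did not pass (permutation p = 0.077, adjusted 0.12). The ratio of Pcsk1 to Pcsk2 was 0.189 in CD and 0.145 in HFD islets at week 20 (exact permutation test, p = 0.0857, adjusted 0.257), and over all weeks it was 0.950-fold in HFD islets (permutation p = 0.15). No single week passed for any of the 3 ratios after adjustment.

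Within groups, the hormone genes varied together from mouse to mouse. With the group means taken off, Ins1 and Ins2 correlated with r = 0.87 (rho = 0.85) over the 48 libraries, and r was 0.83 without the 2 libraries farthest out (permutation within groups, adjusted over 15 pairs 0.00015, from the smallest p that 100000 permutations can give). Ins1 with Iapp gave r = 0.61 (rho = 0.57, adjusted p = 0.0017 by permutation, r = 0.55 without 2 libraries), and Ins2 with Iapp r = 0.53 (rho = 0.54, adjusted p = 0.010 by permutation, r = 0.57 without 2 libraries). Cpe correlated with Ins2 (r = 0.43), Iapp (r = 0.49) and Pcsk2 (r = 0.50), with rho of 0.39, 0.38 and 0.45, adjusted permutation p of 0.032, 0.016 and 0.033 for r, and r of 0.41, 0.44 and 0.42 without 2 libraries. By rho the pair of Iapp and Cpe did not pass (adjusted permutation p = 0.051). Pcsk1 passed with none of the other 5 genes, its r lying between -0.19 and 0.28. All points share a library and its scaling, and without insulin in the total Pcsk1 also correlated with Pcsk2 (r = 0.51) and Cpe (r = 0.55).

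Over all 48 islet libraries, diet and week included, the genes whose log2 level followed each member most closely among 11550 other genes were the following, at most 3 for each, given as a description with no test since genes of a library share its scaling. Iapp was followed by Scg2, which encodes the granule protein secretogranin II (r = 0.87), Pamr1 (r = 0.86) and Gucy2c (r = 0.85). Pcsk1 was followed by Fads2, a fatty acid desaturase (r = 0.84), Mest (r = 0.84) and Nid2 (r = 0.83). Cpe was followed by Fads2 as well (r = 0.82) and by Sqle, the squalene epoxidase of cholesterol synthesis (r = 0.79), and Stard4 (r = 0.78).

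Pcsk2 was followed by Tspan7 (r = 0.86) and 2610524H06Rik (r = 0.86). The likenesses of the insulin genes had lower r: Auh, Dio1 and Tmem9 followed Ins1 (r = 0.71, 0.70 and 0.68) and E2f1, Dapl1 and Tmem242 followed Ins2 (r = 0.66, 0.66 and 0.62). Within groups, after the diet and week means were removed, r of Scg2 with Iapp was 0.67, of 2610524H06Rik with Pcsk2 0.61 and of Stard4 with Cpe 0.72, and that of Fads2 with Pcsk1 was 0.34.

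The genes that work with the 6 were looked at as a list of 20 partners in processing and granule assembly, 19 of which passed the filter. Averaged over weeks, 4 were higher and 3 lower in HFD islets (background 16.9% and 20.9%), with a median log2 change of 0.05 against -0.01 over all genes. The 4 with the smallest adjusted p were Scg2 (0.47), Pcsk1n, which encodes the PC1/3 inhibitor proSAAS (0.21), Sec11c, a subunit of the signal peptidase (0.19), and the convertase gene Pcsk6 (-0.35). The other 3, named after their values were seen, were Ero1b, an oxidase that forms disulfide bonds in the endoplasmic reticulum (0.18), the convertase gene Pcsk7 (-0.10) and the carboxypeptidase gene Cpd (-0.11). At week 12 Ero1b was higher by 0.71 on the log2 scale (SE 0.08, limma adjusted p = 5.39e-06) and Pcsk6 lower, with -0.76 (SE 0.13, limma adjusted p = 0.00052).

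Of 10 transcription factors known to act on the insulin gene, 2 were lower over all weeks, Mafa (-0.30, SE 0.12, limma adjusted p = 0.040) and Rfx6 (-0.13, SE 0.04, adjusted p = 0.022), and none was higher (20.9% and 16.9% of all genes). The share of lower factors is near that of all genes. Nkx6-1 was higher at weeks 12 and 16 (log2 changes 0.40 and 0.35, limma adjusted p = 0.016 and 0.025), 1 of 10 factors in each of these weeks, against 2.18% and 3.30% of all genes. Of the 7 other beta cell markers, 3 of which are also among these factors, Ucn3 (0.29) and G6pc2 (0.21) were higher and Slc2a2 (-0.36) and Mafa lower over all weeks, 2 of 7 in each direction against 16.9% and 20.9% of all genes.

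The promoters of Ins1 and Iapp are shown because both genes were higher in HFD islets at weeks 12 and 16. Ins2 was higher in these weeks too, but the set of promoters used held no entry for Ins2 or Cpe. They are the 250 bases before the transcription start in RefSeq on GRCm38.p6, on the plus strand, with capitals for TAAT, the core that homeodomain factors such as PDX1 bind, and CATCTG, an E-box of the kind bound by NEUROD1, searched on both strands.
Ins1 (chr19:52264047-52264296): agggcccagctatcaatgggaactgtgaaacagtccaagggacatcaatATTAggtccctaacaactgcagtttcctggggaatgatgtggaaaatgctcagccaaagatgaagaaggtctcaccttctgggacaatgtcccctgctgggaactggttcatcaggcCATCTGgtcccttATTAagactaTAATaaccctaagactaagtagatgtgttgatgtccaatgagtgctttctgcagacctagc
Iapp (chr6:142298175-142298424): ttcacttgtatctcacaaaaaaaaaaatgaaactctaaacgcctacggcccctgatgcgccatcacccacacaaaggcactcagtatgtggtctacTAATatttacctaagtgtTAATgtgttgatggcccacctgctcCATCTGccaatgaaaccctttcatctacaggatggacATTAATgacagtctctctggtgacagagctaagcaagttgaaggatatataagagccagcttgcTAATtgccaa
In these windows Ins1 held TAAT 3 times and Iapp 5 times, where 2 of the 5 overlap, and each held CATCTG once. Bases after the start listed in RefSeq (52264297 for Ins1) were not searched, so motifs nearer to the coding frame are not counted. At least 3 matches of TAAT were found in 17.3% and at least 5 in 5.54% of 32851 promoters of this length, and at least 1 match of CATCTG in 14.4%. The promoter of Pcsk1 held TAAT once and that of Pcsk2 held neither motif. Any part of these motifs, or of the factors that bind them, in the HFD effects was not tested.

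The same 6 genes were read in the liver, where beta cells are absent. The source of their transcripts there was not tested, and neither was a difference between diets. Ins2 was listed at 0 in 20 of 48 liver libraries and had at least 1 FPKM in 27, of which 17 were CD and 10 HFD. It was above 100 FPKM in 5 livers and far higher in 2 of these, CD306 (week 12, 2467 FPKM) and CD407 (week 16, 1738 FPKM). In 5 groups all 4 livers had at least 1 FPKM, namely CD and HFD at weeks 4 and 24 and CD at week 16, and at week 4 all 8 values lay between 19.4 and 42.1 FPKM. In 3 groups all 4 were at 0, namely CD and HFD at week 20 and HFD at week 8. The other 4 groups were mixed, with 1 of 4 CD livers at 0 at week 8, 2 of 4 CD and 3 of 4 HFD livers at week 12, and 2 of 4 HFD livers at week 16.

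In the 27 livers with at least 1 FPKM, Ins2 was 1.83 to 3.61 times Ins1 (median 2.45) and 9.26 to 24.4 times Iapp (median 16.1), next to 2.13 to 3.15 times Ins1 and 10.6 to 24.3 times Iapp in islets. The liver of CD306 also had 28.7 FPKM of Gcg, 16.9 FPKM of the trypsinogen gene Prss2 and 7.60 FPKM of Cpe, and its Ins2 was 0.574% of the Ins2 value in the islets of the same mouse. Pcsk1 reached at most 0.63 FPKM, Pcsk2 5.06 FPKM and Cpe 7.60 FPKM in any liver, and Alb, the albumin gene that marks hepatocytes, was between 16734 and 46057 FPKM in liver and between 0.12 and 48.8 FPKM in islets.

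**Figure D5:**
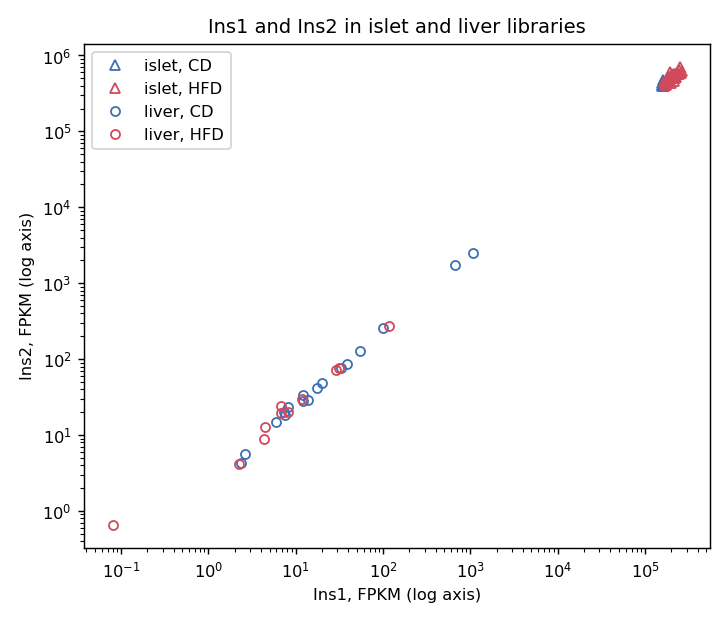
Ins2 against Ins1 in FPKM on log axes, 1 point per library, for islets (triangles) and livers (circles) of CD (blue) and HFD (red) mice. Libraries with either gene at 0 are left out, and the livers spread from 0.65 to 2467 FPKM of Ins2 while the lowest islet library has 394273 FPKM.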

How the data were processed

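RNA of islets and livers from 48 mice had been sequenced and summarised by the authors as FPKM per gene and library, with 2 decimals. The submitters' processing notes name HISAT2 2.0.4, Bowtie2 2.2.5, RSEM 1.1.12, DESeq2 and the build GRCm38.p5, without their order or role. The deposited FPKM table holds no read counts, so the depth behind each value is unknown. A further 24 columns of the authors' group means and 216 columns of their own comparisons (fold changes and p-values) were not used.

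Each library was assigned to its diet and week from its label, and the 4 libraries of a group are 4 mice. FPKM were tested as log2(FPKM + 1) with limma 3.58.1 (variance trend, robust) in R 4.3.3, so fold changes of low genes are understated. Genes with at least 1 FPKM in 4 of the 8 libraries of a week, or in 24 of the 48 in the fit over all weeks, were tested, and p-values were adjusted by Benjamini-Hochberg over all of them. Ratios were compared by exact or 100000 permutations, and correlations by 100000 permutations within groups. The genes named are the 6 members, the 3 genes with the highest Pearson correlation with each, and at most 4 genes from each list of processing partners, insulin gene transcription factors and cell type markers, by the smallest adjusted p in the comparison, plus Gcg and Sst. One gene that this rule names is not reported here. The members and lists were chosen with earlier results of these data known. The test was checked on simulated data.

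Alternatives were another pseudocount (0.1), no filter, totals without Ins1 and Ins2, median ratio scaling, the TPM scale, no variance trend, 1 fit for all groups, and each library left out. The acinar markers as a covariate and the omission of week 12 were added after the data were seen. The covariate was used only in the fit of all 48 libraries.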

Additional observations from a re-analysis of the deposited data

Results flagged for a closer look

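Of 72 groups of 4 islet libraries (6 genes in 12 groups), 4 held a library whose distance from the other 3 exceeded Dixon's 95% critical share of the group's range, and chance alone flags about 1 in 20 groups. They were Ins2 in HFD217 at week 8, with 452682.43 FPKM against 571216.42 to 579845.16, Iapp in CD507 at week 20, with 26159.64 FPKM against 23600.82 to 23944.49, Pcsk1 in CD101 at week 4, with 159.73 FPKM against 192.50 to 193.66, and Cpe in CD608 at week 24, with 1275.10 FPKM against 1459.36 to 1469.82.

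For 3 genes the effect of HFD passed a test of a difference between time points. By limma's test of the first against the last 3 weeks this held for Pcsk1 (adjusted p = 0.03139) and Cpe (adjusted p = 0.03645), and by limma's F-test over the 6 weeks for Ins1 (adjusted p = 0.02007) and Cpe (adjusted p = 0.0328).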

How the results depend on the processing

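With a pseudocount of 0.1 or with no filter on low values, all 66 member results kept their direction and their side of the threshold. With 1 library left out, 1655 results did so, 21 were gained and 52 were lost, and the mean effects of the 5 called genes passed in each of the 48 fits. The number of the 6 genes called was 0 at week 8 and became 3 on the TPM scale, and 2 with all 12 groups in one fit or with the acinar covariate. At week 12 it went from 3 to 5 with insulin left out of the total, where Cpe also turned its direction (log2 change 0.2898). At week 16 it went from 3 to 6 on the TPM scale and to 0 with the acinar covariate. At week 20 it went from 1 to 3 with insulin left out, with one fit or with the acinar covariate, and to 2 on the TPM scale. At week 24 it went from 1 to 2 with the acinar covariate. For the mean effect it went from 5 to 3 with insulin left out. For the first against the last weeks it went from 2 to 1 with insulin left out and to 0 on the TPM scale. For effects differing between weeks it went from 2 to 5 with insulin left out and to 1 with median ratio scaling or on the TPM scale. Calls over all genes moved too. On the TPM scale they were 3030 of 11572 genes at week 8 and 1452 of 11646 at week 16. With insulin left out they were 3081 of 11305 at week 12 and 5349 of 11577 for the mean effect. For effects differing between weeks they were then 5414 of 11577. With the acinar covariate they were 421 of 11556 at week 16. The causes were not tested.

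With single libraries left out, the number called ranged from 0 to 4 at week 8, 2 to 3 at week 12, 0 to 4 at week 16, 0 to 3 at week 20, 0 to 2 at week 24, 0 to 2 for the first against the last weeks, and 1 to 3 for effects differing between weeks. The mean log2 difference over weeks ranged from 0.0352 to 0.0514 for Ins1 to Ins2, from 0.1326 to 0.1643 for Iapp per insulin and from -0.0885 to -0.0614 for Pcsk1 to Pcsk2.

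Of all genes, 613 were called at week 8, but 154 without the filter, 165 with median ratio scaling, 385 without the variance trend, 933 in one fit, 1004 with the acinar covariate and 3030 on the TPM scale. At week 12 it was 511, but 3081 with insulin left out, 1504 on the TPM scale and 1116 in one fit. At week 16 it was 988, but 1637 without the filter, 5216 with insulin left out and 421 with the acinar covariate. At week 20 it was 555, but 1200 with insulin left out, 971 on the TPM scale, 1066 in one fit and 1070 with the acinar covariate. At week 24 it was 972, but 595 on the TPM scale. The first against the last weeks gave 304, but 468 without the filter, 152 with insulin left out and 498 with the acinar covariate, and effects differing between weeks gave 401, but 5414 with insulin left out and 246 on the TPM scale. At week 4 it was 0, but 5 in one fit and 8 with the acinar covariate. With single libraries left out, these counts ranged from 0 to 3 at week 4, 116 to 1787 at week 8, 347 to 817 at week 12, 756 to 1069 at week 16, 140 to 2207 at week 20, 563 to 1199 at week 24, 4069 to 4726 for the mean effect, 202 to 762 for the first against the last weeks and 276 to 773 for effects differing between weeks, so the shares of all genes called move with them.

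No paired analysis was possible because CD and HFD mice are different animals whose numbers are not shared between the groups. The depth behind the FPKM values is unknown.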
